A study of Homo sapiens with 2 samples.

Results

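The genes described here are the activin and inhibin subunits, the antagonists that bind activin, and the activin receptors. They form a set of 10 genes among the 58735 genes of the deposited count table, found there by gene symbol. The set was chosen from a family that holds INHBE, whose difference between the MAEL WT and MAEL KO libraries had already been seen, so the differences between these libraries are given as a description and not as a test. The study asked how the loss of MAEL, a cancer/testis gene, changes the transcriptome of a liver cancer cell line. The MAEL WT library came from untreated wildtype PLC8024 cells, a hepatoma line that is listed as Alexander cells. The MAEL KO library came from the same line after CRISPR-Cas9 editing of MAEL with an sgRNA plasmid, sorting of mCherry-positive cells and growth of single clones, so it stands for clonal cells and not for a pool. There was 1 library per condition. No value below therefore has a replicate error, no p-value is given, and the effect of the knockout cannot be told apart from differences between clones or cultures.

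Activins and inhibins are secreted dimers of the TGF-beta family. Activins are built from beta subunits, encoded by INHBA, INHBB, INHBC and INHBE, and inhibins pair the alpha subunit, encoded by INHA, with a beta subunit. Activin binds a type II receptor, ACVR2A or ACVR2B, which recruits and phosphorylates the type I receptor ACVR1B (ALK4), and ACVR1B phosphorylates SMAD2 and SMAD3. Follistatin, encoded by FST, and the related protein of FSTL3 bind activin and keep it from its receptors. INHBC and INHBE are known as the subunits made mainly by hepatocytes, and INHBE is also known as a gene that responds to endoplasmic reticulum stress and to lack of nutrients.

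Total counts were 19904136 in MAEL WT and 20833332 in MAEL KO, where the floor of 3 counts used here equals 0.151 and 0.144 CPM, counts scaled to library size. MAEL itself had 1 count in MAEL WT and 0 in MAEL KO, both under the floor, so the labels could not be checked by the transcript. MAEL RNA was thus not detectable at this depth even in MAEL WT. The paper describes this line as highest in MAEL expression, with Western blots of the cell lines, which measure protein and not RNA. All 12 hepatocyte markers on a list set for the label check, among them ALB and HNF4A, were measured, and their summed FPKM, which scales counts by gene length and library size, was 2788 in MAEL WT and 6768 in MAEL KO. Of 12 markers of fibroblasts, endothelium and leukocytes, 6 were at or under 3 counts in both libraries, with CD3E at 0, and 4 reached 10 counts in either library, COL1A1 at a log2 fold change of -2.75, PDGFRB at -1.83, PECAM1 at 0.38 and CDH5 at 1.86. The summed FPKM of all 12 was 3.45 in MAEL WT and 3.19 in MAEL KO, mostly from PECAM1 at 2.05 and 2.66. The part of these markers in the results was not tested. In these bulk libraries, fewer cells of a kind and less RNA per cell cannot be told apart.

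INHBE and INHBC lie in tandem on the plus strand of chromosome 12 of GRCh38, INHBC from 57434760 to 57450828 and INHBE from 57452323 to 57459280. Since INHBE carried the largest difference among the members and INHBC the paralog nearest to it, their coding sequences were compared to see whether reads could have been shared between them. The coding sequences of 1050 bases (INHBE) and 1056 bases (INHBC) had no identical run longer than 14 bases. No stretch of 50 bases of any GENCODE 29 transcript of INHBE or INHBC occurred in a transcript of another gene. The 60 bases around the longest shared run are printed with the shared bases in capitals. They lie at coding positions 252 to 311 of INHBE and 270 to 329 of INHBC, and in both genes they cross the junction between exon 1 and exon 2, with outer bases at chr12:57455788-57456106 and chr12:57435156-57449292 on the plus strand.
INHBE: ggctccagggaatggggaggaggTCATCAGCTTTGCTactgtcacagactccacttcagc
INHBC: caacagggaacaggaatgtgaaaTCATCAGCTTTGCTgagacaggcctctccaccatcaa

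INHBB, on the plus strand of chromosome 2 from 120346143 to 120351808, was also compared with INHBE, because both were far lower in MAEL KO. Their longest identical coding run was again 14 bases, at coding positions 499 of INHBE and 673 of INHBB, with the 60-base windows at chr12:57456271-57456330 and chr2:120349300-120349359. The shared bases are again in capitals, and here too no stretch of 50 transcript bases of INHBB was found in another gene.
INHBE: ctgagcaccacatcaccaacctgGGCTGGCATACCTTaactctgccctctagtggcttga
INHBB: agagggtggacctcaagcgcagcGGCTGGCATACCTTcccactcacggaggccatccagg

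The subunit genes were dominated by INHBE in MAEL WT. INHBE had 3385 counts and a deposited FPKM of 51.3 in MAEL WT, against 116 counts and an FPKM of 2.03 in MAEL KO. The log2 fold change, in which MAEL KO is divided by MAEL WT after TMM normalization with 1 added, was -4.65, or 25.0-fold lower, with a 95% Clopper-Pearson interval of -4.94 to -4.39. All such intervals are exact limits on the fraction of the gene's reads that came from MAEL KO, and they cover counting error only.

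The other liver-type subunit, INHBC, was scarce in both libraries. INHBC had 39 counts in MAEL WT and 25 in MAEL KO, or FPKM values of 0.895 and 0.662. Its log2 fold change of -0.42 had an interval of -1.22 to 0.33, which includes no difference, and this interval does not meet that of INHBE. Per length, INHBE was 57.3 times as abundant as INHBC in MAEL WT (95% counting interval 41.9 to 80.8) and 3.07 times in MAEL KO (1.98 to 4.93).

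Among the other subunits, INHBB was low in MAEL KO as well. INHBB, which encodes the subunit of activin B, had 1167 counts in MAEL WT and 93 in MAEL KO, or FPKM values of 16.7 and 1.53. This was a log2 fold change of -3.43, or 10.7-fold lower (95% interval -3.76 to -3.13). Among the subunits, INHBB was thus second to INHBE in FPKM in MAEL WT and in the size of the difference. INHA, the inhibin alpha subunit, had 23 and 16 counts, an FPKM of 0.60 against 0.481, and a log2 fold change of -0.30 with an interval of -1.33 to 0.67 that includes no difference.

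INHBA, which encodes the subunit of activin A, had 0 counts in both libraries. A count of 0 allows up to 3 counts, or an FPKM of up to 0.0165 in MAEL WT and 0.0191 in MAEL KO, so INHBA was not detectable at this depth and no fold change was computed. INHBA-AS1, which overlaps INHBA on the other strand, also had 0 counts in both libraries.

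**Figure D1:**
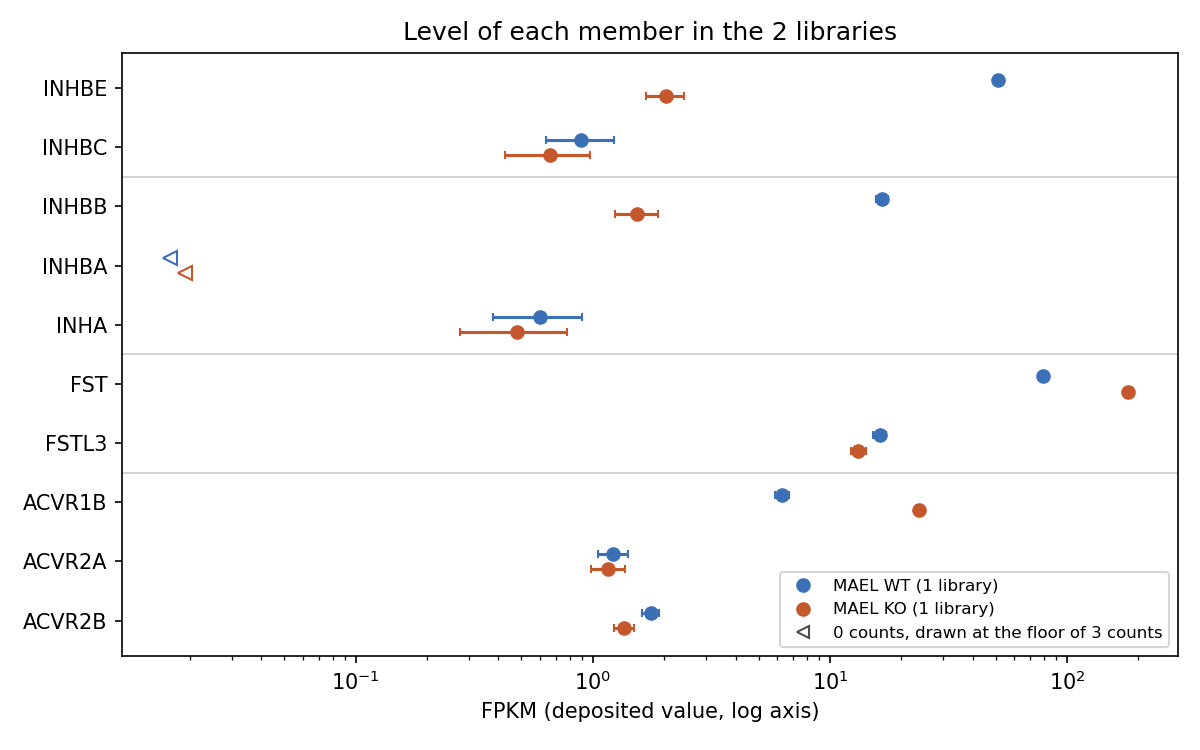
Deposited FPKM of each of the 10 genes on a log axis, with 1 point per library and 95% Poisson intervals for counting error; open triangles mark INHBA, at 0 counts, at the floor of 3 counts. INHBE and INHBB lie far to the left in MAEL KO, at 2.03 and 1.53 against 51.3 and 16.7, while FST and ACVR1B lie to the right.

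Summed over the 5 subunit genes, the FPKM was 69.5 in MAEL WT and 4.70 in MAEL KO, 14.8-fold lower. INHBE made up 73.9% of this sum in MAEL WT and 43.1% in MAEL KO, and INHBB 24.0% and 32.5%. INHBC and INHA, whose few counts resolved no difference in level, made up 1.29% and 0.863% of the sum in MAEL WT but 14.1% and 10.2% in MAEL KO. The ratio of INHBE to INHBB per length was 3.08 in MAEL WT (95% counting interval 2.88 to 3.30) and 1.33 in MAEL KO (1.00 to 1.76).

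**Figure D2:**
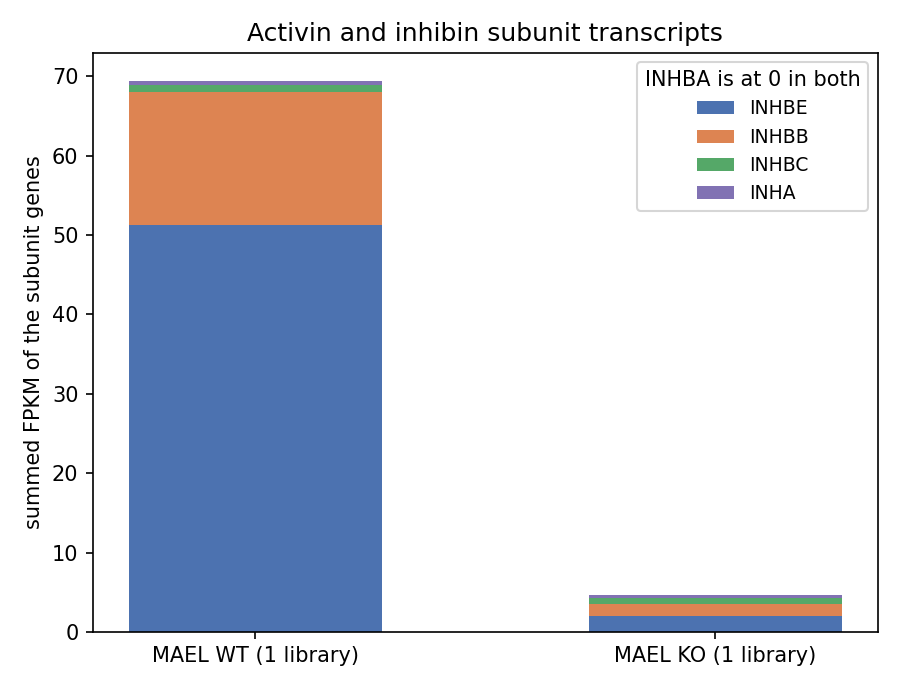
Stacked bars of the FPKM of the activin and inhibin subunit genes, from 0, with 1 bar per library and no error since there is 1 library each. The bar is 69.5 FPKM high in MAEL WT, mostly INHBE, and 4.70 FPKM high in MAEL KO, with INHBA at 0 in both.

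The antagonists took another course. FST, on the plus strand of chromosome 5 from 53480409 to 53487134, was the most abundant member in both libraries, with 5156 counts in MAEL WT and 10127 in MAEL KO, or FPKM values of 79.4 and 179.9. It was 2.27-fold higher in MAEL KO, a log2 fold change of 1.18 (95% interval 1.14 to 1.23). FSTL3 had 1088 and 766 counts, FPKM values of 16.2 and 13.2, and a log2 fold change of -0.30 (95% interval -0.43 to -0.16), a small difference in the opposite direction to FST.

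The ratio of FST to subunit transcripts therefore differed widely between the libraries. Per length, FST was 4.77 times as abundant as INHBB in MAEL WT (95% counting interval 4.47 to 5.08) and 118 times in MAEL KO (95.8 to 146). Against INHBE the ratio was 1.55 in MAEL WT (1.48 to 1.62) and 88.7 in MAEL KO (73.8 to 107). The ratio of FST to FSTL3 went from 4.90 (4.58 to 5.23) to 13.7 (12.7 to 14.7). These ratios within a library do not depend on the scaling between libraries, and they compare RNA and not protein. Whether the antagonists or ACVR1B act on the products of INHBE and INHBC was not tested.

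Of the receptors, the type I receptor differed more than the type II receptors. ACVR1B, on the plus strand of chromosome 12 from 51951667 to 51997078, had 782 counts in MAEL WT and 2566 in MAEL KO, or FPKM values of 6.28 and 23.8. It was 3.79-fold higher in MAEL KO, with a log2 fold change of 1.92 that lies just under the study's threshold of 2 and an interval of 1.81 to 2.04 that includes it. ACVR2A had 181 and 149 counts, FPKM values of 1.22 and 1.16, and a log2 fold change of -0.07 (95% interval -0.39 to 0.25). ACVR2B had 604 and 405 counts, FPKM values of 1.75 and 1.36, and a log2 fold change of -0.37 (95% interval -0.55 to -0.18).

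Per length, ACVR1B was 5.14 times as abundant as ACVR2A in MAEL WT (95% counting interval 4.37 to 6.08) and 20.5 times in MAEL KO (17.4 to 24.3). Against ACVR2B it was 3.58 times in MAEL WT (3.22 to 3.99) and 17.5 times in MAEL KO (15.8 to 19.5). ACVR2B was above ACVR2A in MAEL WT, at 1.43 times (1.21 to 1.70), and could not be told from it in MAEL KO, at 1.17 times (0.966 to 1.42). These ratios rest on the listed gene lengths, 15744 bases for ACVR2B and 6770 for ACVR2A. Which transcripts were expressed was not resolved, and the intervals leave this out. Of the receptors, ACVR2A overlaps AC009480.1 by 3556 bases and ORC4 by 430 bases on the other strand, and ACVR2B overlaps ACVR2B-AS1 by 970 bases. The subunit gene INHA overlaps OBSL1 by 2698 bases, also on the other strand. Whether reads were counted by strand is not given in the sources used here, so reads from these overlaps cannot be told apart. Of the stretches of 50 bases in ACVR2B transcripts, 45 of 15718 (0.286%) occurred in other genes, 117 genes in all, and the other members shared none. OBSL1 had 857 and 768 counts, ORC4 885 and 1248, ACVR2B-AS1 22 and 37, and AC009480.1 0 and 1.

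**Figure D3:**
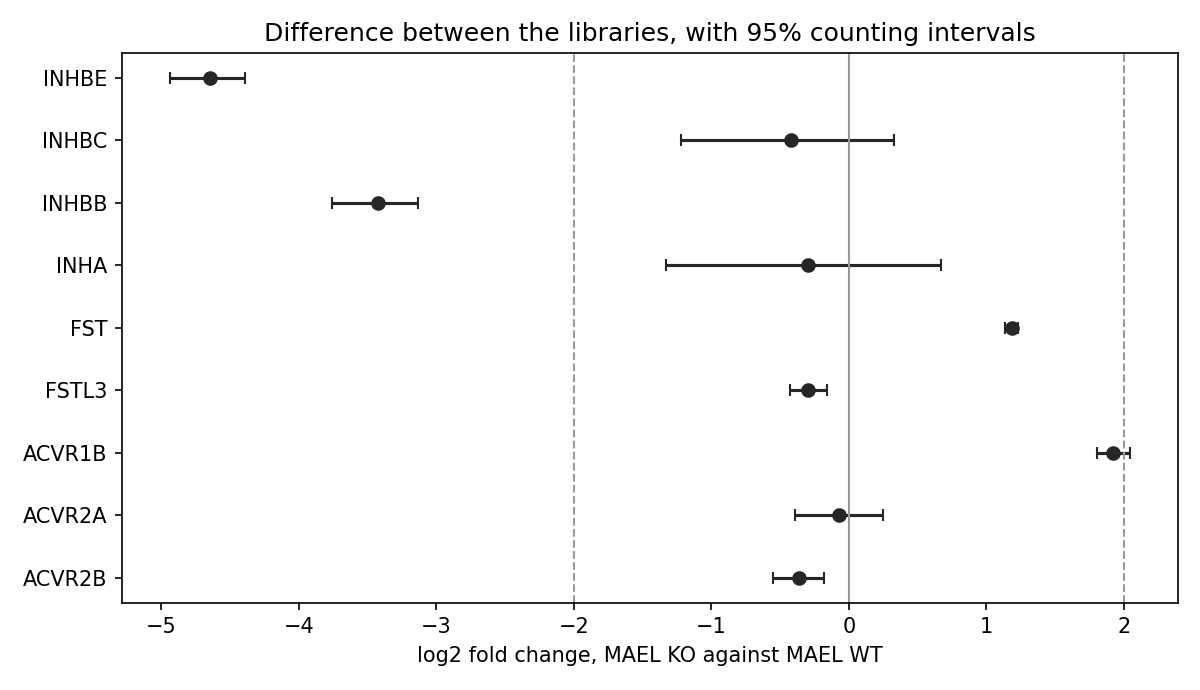
Log2 fold change, MAEL KO over MAEL WT, for the 9 genes that reached 10 counts in either library, with 95% Clopper-Pearson intervals for counting error and dashed lines at -2 and 2. INHBE at -4.65 and INHBB at -3.43 lie beyond the lower line, ACVR1B at 1.92 touches the upper line with its interval, and the intervals of INHBC, INHA and ACVR2A include 0.

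In order of FPKM, the members in MAEL WT ran from FST through INHBE, INHBB, FSTL3, ACVR1B, ACVR2B, ACVR2A and INHBC to INHA, with INHBA at 0. Neighbours in this order whose ratio had a counting interval that includes 1 were INHBB and FSTL3, ACVR2A and INHBC, and INHBC and INHA. In MAEL KO the order was FST, ACVR1B, FSTL3, INHBE, INHBB, ACVR2B, ACVR2A, INHBC and INHA. There INHBB and ACVR2B, ACVR2B and ACVR2A, and INHBC and INHA could not be told apart by counting error. INHBE thus went from the second place to the fourth and INHBB from the third to the fifth, both below FSTL3, while ACVR1B went from the fifth place to the second.

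Of the 10 members, 9 reached 10 counts in either library, the filter used here. Of these, INHBE and INHBB, 2 in all, were lower past a log2 fold change of 2, where 5.64% of the 17887 genes that passed the same filter were, and 0 were higher past 2, where 2.16% of the genes were. Past a log2 fold change of 1, 2 members were lower, with 16.5% of all genes, and 2 were higher, FST and ACVR1B, with 10.2% of all genes. Because the members were picked with this contrast known, nothing is read from these shares. The median log2 fold change of all genes was -0.04. Scaled by total counts it was -0.31, and FST was then at 0.91, under 1.

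INHBE stood near the end of the distribution of well-counted genes. Of 5431 protein-coding genes that reached 1000 counts in either library, INHBE had the third lowest log2 fold change, INHBB the eighth lowest, and ACVR1B rank 102 and FST rank 378 from the highest. INHBE and INHBB reached 1000 counts only in MAEL WT, and ACVR1B only in MAEL KO. Since the set was picked with this contrast known, these ranks are a description only. The genes nearest to INHBE in log2 fold change over the 2 libraries were CAPN8 at -6.73 and MUC2 at -6.46 below it, and FAM129A at -4.30, CHAC1 at -3.72 and IFI6 at -3.64 above it. FAM129A, with 1338 and 58 counts, was the nearest of these, at a distance of 0.35 on the log2 scale. Of these genes CHAC1, which encodes a glutathione-degrading enzyme, is also on the stress gene list described below.

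**Figure D4:**
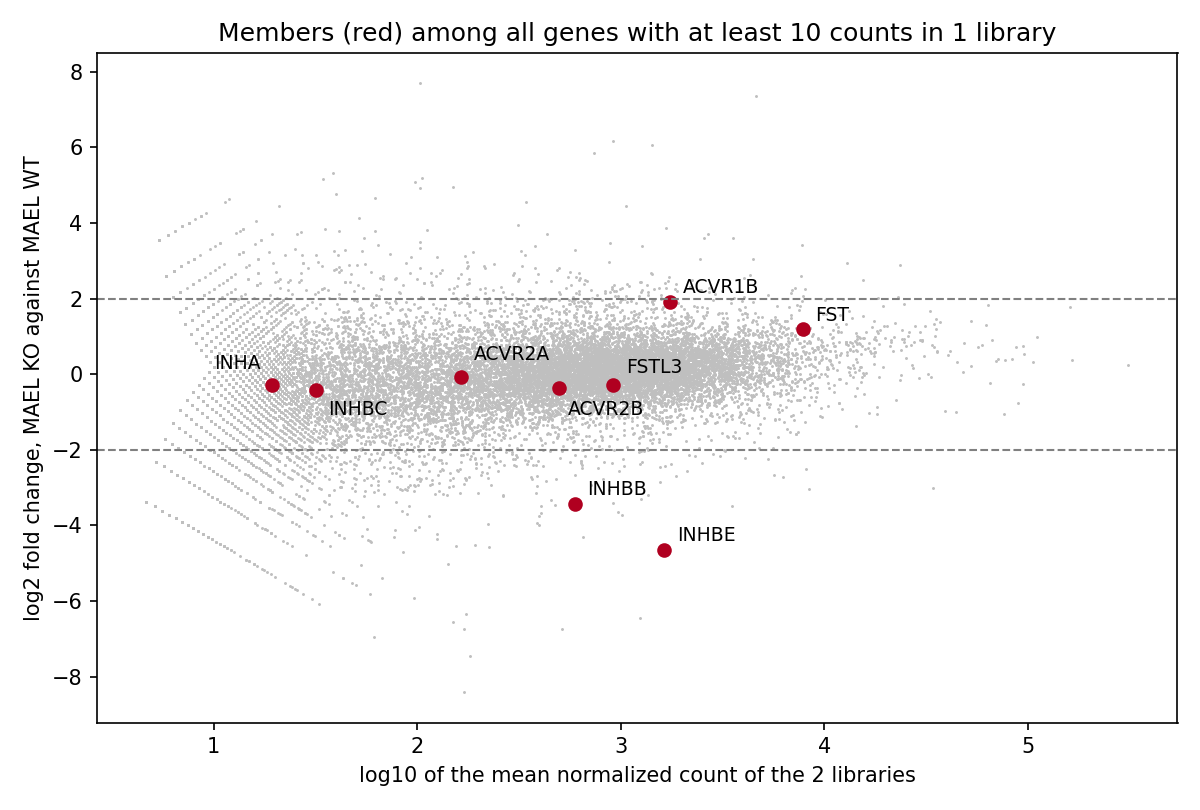
Log2 fold change against the log10 mean normalized count for the 17887 genes that passed the filter of 10 counts (grey) and the 9 measured members (red), with dashed lines at -2 and 2. INHBE at -4.65 and INHBB at -3.43 lie at the lower edge of the well-counted genes, and the fan of grey lines at the left is the step of single counts.

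The other genes of the pathway had a median near 0, with differences in both directions. On a list of 35 further genes of activin, NODAL and TGF-beta signalling, 25 were measured, with a median log2 fold change of -0.07 against -0.04 for all genes. Of these, 1 was lower past 2 (5.64% of all genes were) and 0 were higher (2.16% of all genes), and 2 were lower past 1 (16.5% of all genes) and 0 were higher (10.2% of all genes). By part, the median was -0.52 for the 5 measured ligands, -0.29 for the 4 receptors and -0.06 for the 3 modulators. It was -0.07 for the 11 SMADs and partners and 0.47 for the 2 convertases. Both genes lower past 1 were ligands. TGFB2, a TGF-beta ligand, had 60 and 11 counts and stood at -2.15 (95% interval -3.31 to -1.30). TGFB1 had 1114 and 397 counts and stood at -1.28 (95% interval -1.45 to -1.11). Next was BAMBI, a decoy receptor without kinase activity, at -0.98. At the other end were TGFBR1, the type I receptor for TGF-beta, with 722 and 1226 counts at 0.97, PCSK6, a convertase that cleaves precursors of this family, with 668 and 1130 counts at 0.97, and SKI, a repressor of SMAD activity, at 0.74.

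Transcripts of the SMADs, which pass on the activin signal, were close to level. SMAD2 was at 0.29, SMAD3 at 0.35 and SMAD4 at -0.12, and all 11 SMADs and partners on the list lay within 1 of 0. The co-receptor TGFBR3, or betaglycan, which binds inhibin, was at 0.32 with 985 and 1065 counts. ACVR1C (ALK7), the other type I receptor for this branch, had 2 and 6 counts, too few for a value. The ligands GDF1, GDF3 and MSTN and the factors CER1, TDGF1 and CFC1 were listed at 0 in both libraries, which allows up to 3 counts each. FURIN, another convertase, was abundant, at an FPKM of 165 and 161.

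Genes known to be induced through SMAD2 and SMAD3 lay on both sides of 0. Of 12 on the list, 11 were measured, with 5 above 0 and 6 below 0 and a median of -0.14. CDKN2B, a cell cycle inhibitor, was the 1 gene lower past 2 (1402 and 215 counts, log2 fold change -2.49), where 5.64% of all genes were, TGFBI was at -1.45 and JUNB at -0.92. NEDD9 was at 1.21 and ANGPTL4 at 0.82.

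Beside INHBE, a list of 11 genes of the response to endoplasmic reticulum stress and lack of amino acids was low in MAEL KO. All 11 lay below 0, with 8 lower past 2, against 5.64% of all genes, and 0 higher, against 2.16%. The median log2 fold change was -2.28. This list was written when a difference in such genes was already known from these libraries, so its direction is not independent evidence. FGF21, a hepatokine, had 41 and 0 counts and was 11.8-fold lower when MAEL KO was set at the floor. Its counting interval allows a smaller difference, with its limit at -3.20 on the log2 scale. CHAC1 had 2016 and 131 counts at -3.72, and GDF15, a stress-induced cytokine of the TGF-beta family, had 65370 and 6975 counts at -3.02. The members nearest to 0 were ATF4, the transcription factor itself, with 12198 and 8922 counts at -0.24, DDIT4 at -1.42 and DDIT3, which encodes CHOP, at -1.999. Whether these genes and INHBE were low for the same reason was not tested.

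The hepatocyte markers went the other way from INHBE, although INHBE is made in the liver. All 12 lay above 0, with 4 higher past 2, against 2.16% of all genes, and a median of 1.60. ALB was at 7.36, APOA1 at 3.60 and TTR at 3.10, and the lowest were APOB at 0.97, FGA at 0.39 and TF at 0.36.

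The genes around INHBE on chromosome 12 were read for comparison. Of the 41 other measured genes whose lower coordinate lies within 500 kb of that of INHBE, the log2 fold changes ran from -2.91 to 1.36, with a median of -0.40. No point value was as low as that of INHBE. The lowest, of ARHGAP9, rests on 3 counts in MAEL KO, at the floor, and its interval reaches -5.60, below INHBE. Past 1, 12 of the 41 were lower (29.3%, against 16.5% of all genes) and 1 was higher (2.44%, against 10.2% of all genes). Within 200 kb the median was -0.66 over 16 genes, of which 37.5% were lower past 1 and 0% higher. Within 1000 kb it was -0.31 over 51 genes, with 25.5% lower past 1 and 3.92% higher.

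INHBC, the gene before INHBE, was at -0.42, and GLI1, the transcription factor of Hedgehog signalling that follows INHBE, was at -1.40 with 366 and 119 counts. Further on, MARS, the methionyl-tRNA synthetase, was at -1.27 with 12223 and 4369 counts, and DDIT3 was at -1.999 with 1122 and 242 counts. ARHGAP9, with 33 and 3 counts, was at -2.91 (95% interval -5.60 to -1.58). The other neighbours lower past 1 were NXPH4 at -2.78, NDUFA4L2 at -2.52, SHMT2 at -1.56, AGAP2 at -1.46, KIF5A at -1.32, DTX3 at -1.29, AC084033.3 at -1.18 and LRP1 at -1.01, and MYO1A was higher at 1.36. MBD6 at -0.09 and DCTN2 at -0.23, which lie between DDIT3 and KIF5A, were named after their values were seen. Whether the genes of the region share a cause was not tested.

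**Figure D5:**
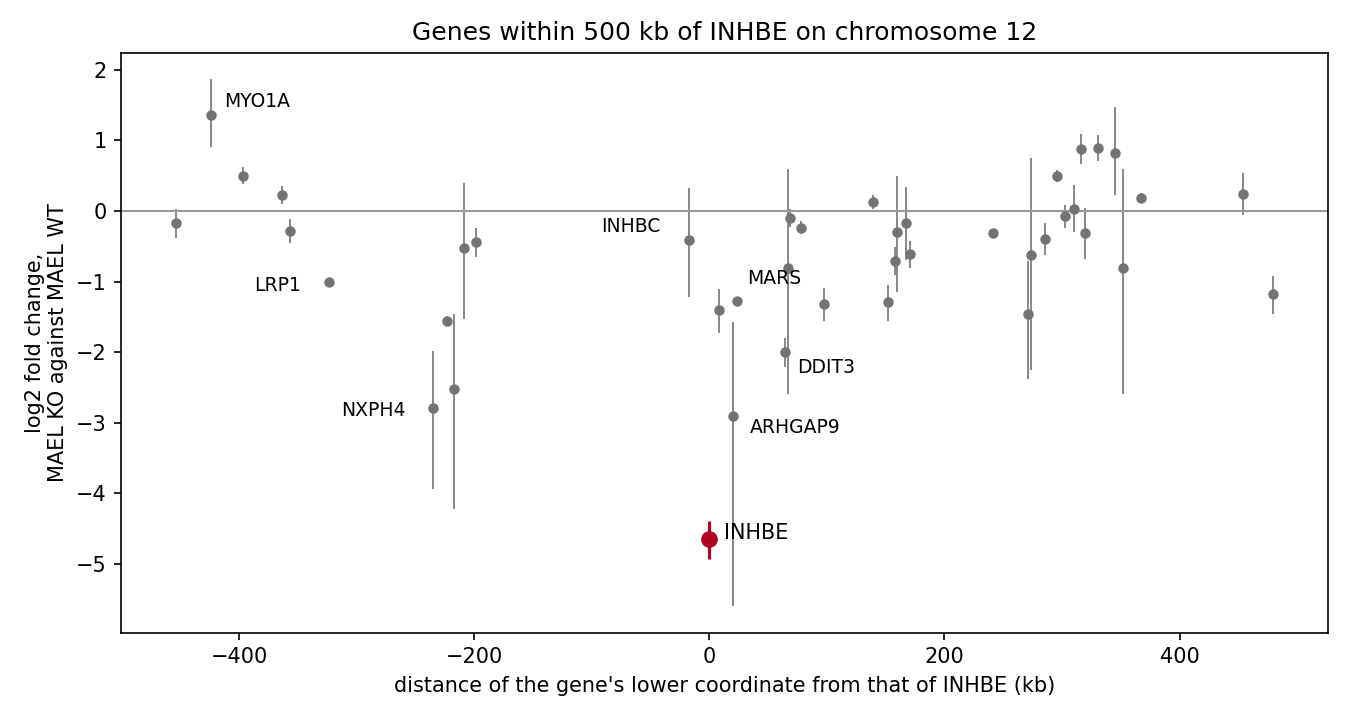
Log2 fold change of the genes within 500 kb of INHBE on chromosome 12, against the distance of their lower coordinate from that of INHBE in kb, with 95% counting intervals. INHBE (red) is at -4.65, INHBC at -0.42, and the other genes lie between -2.91 and 1.36.

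The 250 bases before the start of transcription were read for the members that RefSeq's table covers on GRCh38.p14, 9 of 10, with 10 windows since ACVR1B has 2. These RefSeq starts differ from the gene starts in the count table, so several windows lie partly or wholly inside the gene as listed there. The windows of INHA, INHBA and ACVR2A and the second of ACVR1B lie wholly inside, and most of the FST window does. INHBE is without a window. The windows of the 3 members with one that differed past 1, INHBB, FST and ACVR1B, are printed 5′ to 3′, all on the plus strand, at chr2:120345886-120346135, chr5:53480379-53480628 and chr12:51951449-51951698 (the first of the ACVR1B windows).
INHBB: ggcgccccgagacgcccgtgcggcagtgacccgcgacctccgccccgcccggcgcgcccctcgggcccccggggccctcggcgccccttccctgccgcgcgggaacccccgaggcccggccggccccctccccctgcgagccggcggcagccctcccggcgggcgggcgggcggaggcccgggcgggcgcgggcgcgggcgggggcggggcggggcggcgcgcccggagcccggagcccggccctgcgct
FST: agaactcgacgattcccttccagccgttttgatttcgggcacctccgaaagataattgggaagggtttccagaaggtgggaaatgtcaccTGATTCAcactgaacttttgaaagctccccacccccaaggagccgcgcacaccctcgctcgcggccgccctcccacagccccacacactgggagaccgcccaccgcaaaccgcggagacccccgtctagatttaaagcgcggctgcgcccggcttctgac
ACVR1B: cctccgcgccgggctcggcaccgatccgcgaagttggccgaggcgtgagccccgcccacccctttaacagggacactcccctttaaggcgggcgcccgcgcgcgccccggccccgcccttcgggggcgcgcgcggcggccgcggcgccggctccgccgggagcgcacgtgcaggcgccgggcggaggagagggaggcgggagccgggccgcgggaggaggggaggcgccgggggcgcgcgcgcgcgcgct

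Capitals mark matches, on either strand, to TGATGNAA (the core of the element bound by ATF4 with C/EBP), TGANTCA (AP-1), TGACGTCA (the cAMP response element) or GTCTAGAC (the SMAD palindrome), which do not overlap here. Of the 10 windows, 2 held a match, and both were to TGANTCA, in FST 160 bases before the RefSeq start and in INHA 230 bases before it. Both matches lie inside the genes as listed in the count table, where FST starts at 53480409 and INHA at 219569162. Over all 35116 windows in the table, the shares with a match were 3.14%, 6.57%, 1.65% and 0.182% in the order given. The INHBB window and the printed ACVR1B window held 89.6% and 82.8% G and C and 46 and 48 CG dinucleotides, against medians of 58.0% and 11 over all windows. The second ACVR1B window held 44.8% and 4. FSTL3 and ACVR2B, which differed little between the libraries, had windows with 80% and 36 and with 74% and 26. The INHBC window held 50.8% and 3, that of INHBA 42.8% and 1, that of FST 60% and 20, that of INHA 59.6% and 7, and that of ACVR2A 40.8% and 14.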

How the data were processed

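The authors sequenced RNA from MAEL WT and MAEL KO cells, 1 library each (HiSeq). The authors deposited read counts per gene, whole numbers without normalization, and FPKM values. The submitters' processing notes name HISAT2 2.0.5, featureCounts 1.5.0-p3 and hg19, whereas the gene coordinates in the tables are those of GENCODE 29 on GRCh38 for 58690 of 58735 genes, and GRCh38 is used here. The deposited FPKM equals the count over the listed gene length and over a library size rescaled between the libraries (21872500 in MAEL WT and 18958500 in MAEL KO). All 4 columns of sample values were used.

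TMM factors of 1.10 and 0.909 were computed with edgeR 4.0.16, with size factors from DESeq2 1.42.0 as an alternative, in R 4.3.3. Fold changes were computed on normalized counts plus 1 where a gene reached 10 counts in either library, with the study's log2 threshold of 2. The levels of genes are compared as FPKM, by the listed length of each gene. Which transcripts of a gene were expressed was not resolved, so ratios between genes carry an error that the counting intervals leave out. Python 3.11.15, NumPy 2.4.6, SciPy 1.17.1, pandas 2.3.3 and matplotlib 3.10.9 were used, and the steps were tested on simulated data. No test was run, since 1 library per condition gives no replicate error. Reads were not tied to molecules by identifiers, so intervals and floors cover counting error only.

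The members and the gene lists were chosen with earlier results of these data known. CCN2 was matched by gene ID, as CTGF in the tables. Genes named are all members, up to 3 at each end of each list, up to 3 genes on either side of INHBE by fold change among well-counted genes, neighbours of INHBE past 1, genes overlapping a member on the other strand, and MAEL, except 1 gene of a list that is not reported here. Named beyond this rule, after their values were seen, were SMAD2, SMAD3, SMAD4, TGFBR3, ACVR1C, FURIN, MBD6, DCTN2 and the genes at 0.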

Additional observations from a re-analysis of the deposited data

How the results depend on the processing

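The alternatives were scaling by total counts or by DESeq2 size factors, FPKM ratios with 0.01 added, 0.1 or 5 added to the normalized counts, no count filter, at least 100 counts in 1 library, a log2 threshold of 1, levels scaled by total counts and windows of 200 and 1000 kb around INHBE. No fold change of a member and no median of a list or of the neighbours changed sign under those run for it, and the pathway median was 0 without a count filter. The median of all genes, -0.04, did change sign, to 0.07 with at least 100 counts, and was 0 without a filter. INHBE and INHBB were the members lower past 2, and 0 members were higher, under every scaling, added count and filter, and 2 members were higher at a log2 threshold of 1. All 9 fold changes of members stayed within their counting intervals under DESeq2 size factors, FPKM ratios and either added count, and 4 of 9 did not with total counts, which shifted the median of all genes from -0.04 to -0.31: FST at 0.91, ACVR1B at 1.65, FSTL3 at -0.57 and ACVR2B at -0.64. The pathway list had 0 genes lower past 2 with 5 added and with at least 100 counts, in place of 1, and the SMAD target list had 2 without a count filter, in place of 1, since PMEPA1, at 5 and 0 counts, then entered. The stress list had 9 lower with DESeq2 size factors, total counts, FPKM ratios or 0.1 added, and 7 with at least 100 counts, in place of 8. The summed subunit level in MAEL WT was 76.3 when scaled by total counts, against 69.5 FPKM. INHBC, INHA and INHBA are limited by depth, at 39 counts or fewer. Leaving out a library was not possible with 1 per condition.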
